A study of Mus musculus with 6 samples.

Results

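Plasma acute phase proteins are secreted by hepatocytes, and 10 of their genes (Orm1, Orm2, Orm3, Hp, Hpx, Apcs, Itih3, Itih4, Lbp and Serpina3n) were followed here in liver RNA. They were taken by name from the 49671 genes of the count table, by matching the Ensembl gene IDs of the table to the GENCODE annotation of the mouse genome GRCm38, and all 10 were found. The p75 neurotrophin receptor (p75NTR), which is encoded by Ngfr and binds neurotrophins and their pro-forms, was deleted in the knockout (KO) mice. The study used RNA sequencing to see which liver genes differ when the receptor is missing. Bulk liver tissue was taken from homozygous p75NTR KO mice (replicates 1, 2 and 4) and wild-type (WT) mice (replicates 1, 2 and 3), all labelled as strain B6.1129S4-Ngfr/J of the Jackson lab and kept for 6 months under standard conditions. The KO lacks the receptor in every tissue, not in the liver alone, and both genotypes came from breeding of the same stock in the laboratory. No treatment, infection or special diet is given for either genotype. In what follows, values of 3 livers are in the order of replicates 1, 2 and 4 for KO and 1, 2 and 3 for WT.

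In the acute phase response, cytokines of the interleukin-6 and interleukin-1 type reach the liver after infection or tissue damage and change which plasma proteins hepatocytes secrete. The transcription factors STAT3, C/EBP-beta and NF-kB act on the promoters of these genes, and glucocorticoids add to their effect. The proteins clear haem and haemoglobin, bind lipids and microbial products, hold hyaluronan in the matrix or inhibit proteases, and most of them are present in healthy plasma at a baseline level.

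The libraries held 31576768, 32664149 and 29784429 counts in KO and 30269474, 31412855 and 27107209 counts in WT. Levels below are CPM, the counts scaled to a common library size after TMM normalization of the totals. Ngfr had 53, 27 and 47 counts in KO livers, against 133, 144 and 78 in WT livers, and reads from exons outside the deleted part can still be counted in KO. All 8 hepatocyte markers were present, with a summed level of 114287 to 129126 CPM in KO and 120445 to 136344 CPM in WT, most of it Alb. Cps1, the first enzyme of the urea cycle, was the 1 hepatocyte marker of the 8 called by DESeq2 (log2 fold change 0.86, adjusted p = 0.198 in edgeR and 1.83e-04 in DESeq2), with 5037, 3166 and 3902 CPM in KO livers, against 2098, 2258 and 2311 CPM in WT livers. The library of KO replicate 4 stood apart on the first principal component (64.6, against -18.4 to -9.28 in the other libraries, 39.3% of the variance). It also held 4712 counts of Y-linked genes, against 0 to 2 in each of the other libraries, and 16 counts of Xist, against 6599 to 9554, and no label names the sex of the mice. These reads mark KO replicate 4 as male and the other libraries as female, so the KO livers differ in sex among themselves and the WT livers do not. The part of sex in the differences was not tested. The results for the 10 genes and for the gene lists are therefore given with and without KO replicate 4. In bulk RNA, fewer cells of a type and less RNA per cell cannot be told apart.

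The 3 orosomucoid genes lie side by side on chromosome 4 and are nearly alike in sequence. Among the 10 genes, reads of Orm1 and Orm2 are the hardest to assign. To show how close they are, the first 60 coding bases of each gene are printed 5′ to 3′ from the GENCODE transcripts on GRCm38, with the 12 positions at which the 3 differ in capitals.
Orm1: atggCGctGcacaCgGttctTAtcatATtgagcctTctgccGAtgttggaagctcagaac
Orm2: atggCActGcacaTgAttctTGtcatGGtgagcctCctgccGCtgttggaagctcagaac
Orm3: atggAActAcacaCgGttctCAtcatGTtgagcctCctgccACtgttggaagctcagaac
Over the whole coding sequence, Orm1 and Orm2 were 89.9% identical (558 of 621 positions), Orm1 and Orm3 86.0%, and Orm2 and Orm3 87.9%. Of the 701 windows of 75 bases (the read length of the study) in Orm1 transcripts, 97 also occurred in Orm2, and of the 699 windows of Orm3 only 1 occurred in another gene, Orm2. A read from such a shared window cannot be assigned to 1 gene. In Serpina3n, 29 of 1990 windows (1.46%) also occurred in transcripts of Serpina3e-ps or Serpina3g, and the other 6 genes shared 0 windows. None of the 10 genes overlapped an exon of another gene on either strand.

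Promoter sequence from RefSeq (GRCm38.p6) was at hand for 7 of the 10 genes: Apcs, Hpx, Itih3, Itih4, Orm2, Orm3 and Serpina3n. The 250 bases before the start were searched on both strands for letters that the transcription factors of the acute phase are known to bind. The C/EBP letters TTNNGNAA occurred in 4 of the 7 promoters (Hpx, Orm2, Orm3 and Serpina3n) and in 36.8% of all 32851 promoters of the same length. The STAT letters TTCNNNGAA, which read the same on both strands, occurred in 2 of the 7 (Apcs and Itih4) and in 7.02% of all promoters. The letters CTGGGAA of the classical interleukin-6 element occurred in Apcs alone among the 7 and in 9.1% of all promoters. The NF-kB letters (GGG, then 5 bases of any kind, then CC) occurred in Itih4 and Serpina3n and in 45.8% of all promoters. No match of one motif overlapped a match of another. A match describes the letters and is not evidence of binding. The promoters of 4 genes with a C/EBP match are printed on the strand of the gene with those matches in capitals, Orm2 and Orm3 because they are neighbouring copies and Hpx and Serpina3n because the levels of these genes, given below, separated KO from WT livers.
Orm2, chr4:63362199-63362448, plus strand: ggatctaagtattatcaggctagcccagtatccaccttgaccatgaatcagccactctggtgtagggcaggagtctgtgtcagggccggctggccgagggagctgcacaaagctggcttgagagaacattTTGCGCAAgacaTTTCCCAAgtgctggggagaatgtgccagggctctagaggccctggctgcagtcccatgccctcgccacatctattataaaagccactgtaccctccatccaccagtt
Orm3, chr4:63355908-63356157, plus strand: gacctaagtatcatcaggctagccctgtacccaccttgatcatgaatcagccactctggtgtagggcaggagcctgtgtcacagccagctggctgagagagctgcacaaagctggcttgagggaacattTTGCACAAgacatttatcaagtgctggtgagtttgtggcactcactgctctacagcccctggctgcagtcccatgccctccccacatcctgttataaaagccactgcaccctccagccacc
Hpx, chr7:105600117-105600366, minus strand: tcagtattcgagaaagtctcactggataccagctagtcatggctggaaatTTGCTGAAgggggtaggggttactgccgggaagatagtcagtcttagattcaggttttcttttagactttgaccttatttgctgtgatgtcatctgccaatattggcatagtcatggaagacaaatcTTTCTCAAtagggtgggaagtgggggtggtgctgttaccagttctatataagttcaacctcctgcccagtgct
Serpina3n, chr12:104406458-104406707, plus strand: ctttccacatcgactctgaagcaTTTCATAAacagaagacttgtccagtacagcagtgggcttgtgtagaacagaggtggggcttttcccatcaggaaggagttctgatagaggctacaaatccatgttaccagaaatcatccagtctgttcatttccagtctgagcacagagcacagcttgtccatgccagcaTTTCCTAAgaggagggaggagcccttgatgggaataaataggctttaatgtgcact
In Orm2 the match TTGCGCAA lay 120 to 113 bases before the start and reads the same on both strands, and in Orm3 the match TTGCACAA lay at 121 to 114 bases. Orm2 held another match, TTTCCCAA, at 108 to 101 bases, where Orm3 had none. The promoter of Itih4 is printed with its STAT match in capitals, 51 to 43 bases before the start.
Itih4, chr14:30886226-30886475, plus strand: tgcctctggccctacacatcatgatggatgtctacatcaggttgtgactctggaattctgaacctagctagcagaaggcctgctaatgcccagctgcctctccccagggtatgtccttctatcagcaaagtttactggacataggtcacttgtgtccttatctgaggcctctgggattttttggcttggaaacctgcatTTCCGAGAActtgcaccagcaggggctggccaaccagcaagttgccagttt

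All 10 genes had a higher mean level in KO than in WT livers, with ratios of the means between 1.17 for Lbp and 2.18 for Orm2. In 6 of the 10 (Orm1, Hp, Hpx, Itih3, Itih4 and Serpina3n) every KO liver lay above every WT liver, which was the case for 6.02% of the 13773 genes tested, and in 0 of the 10 did every KO liver lie below every WT liver, against 6.36% of those genes. The ranges of the other 4 genes (Orm2, Orm3, Apcs and Lbp) overlapped. In edgeR's quasi-likelihood test 0 of the 10 genes passed an adjusted p under 0.05 (0.0% of all tested genes were called higher), and 7 of the 10 had an unadjusted p under 0.05 in the higher direction, against 3.7% of all tested genes. DESeq2 called 2 of the 10 (Hpx and Serpina3n) higher, with a background of 0.644%, and limma-voom called 0, with a background of 0.00726% higher and 0.029% lower. The median log2 fold change of the 10 genes was 0.47, against -0.00 over all genes tested, and 49.8% of all tested genes had a value above 0. These p-values measure only the spread between the sampled livers, and an exact 2-sided permutation test of 3 against 3 livers cannot give a p below 0.1.

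**Figure D1:**
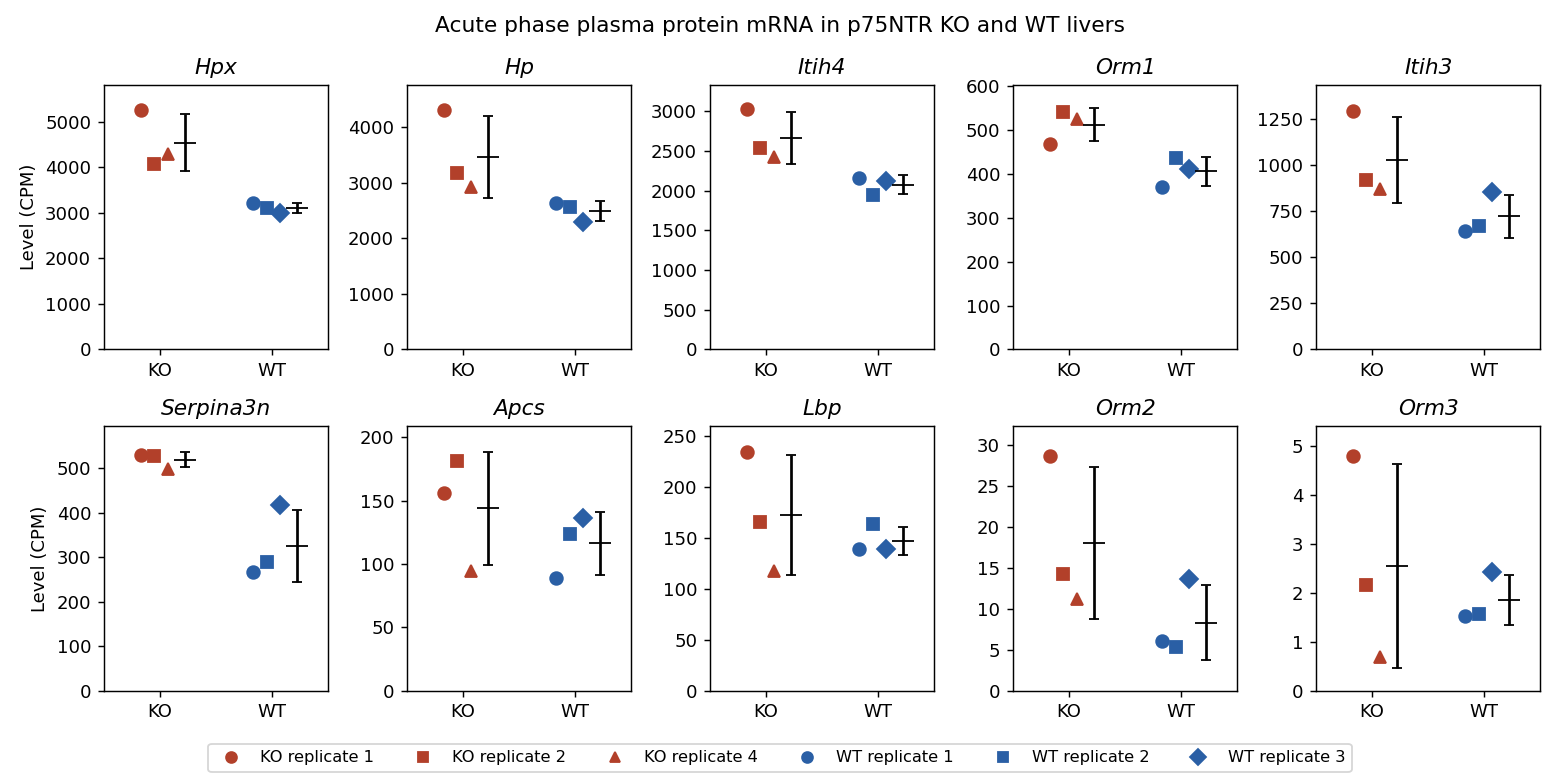
Level in CPM (y axis, linear from 0, a scale of its own for each gene) of the 10 acute phase genes in each KO liver (red, left) and each WT liver (blue, right), with the mean and SD of each group in black. The KO points of Hpx, Hp, Itih4, Orm1, Itih3 and Serpina3n all lie above the WT points, and those of Apcs, Lbp, Orm2 and Orm3 overlap with them.

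Without KO replicate 4, the median difference was larger and more genes separated the genotypes. In the 5 remaining livers the KO range lay above the WT range for 9 of the 10 genes, all but Orm3, with a background of 14.4% of 14102 genes tested. In edgeR 0 of the 10 passed an adjusted p under 0.05 (background 0.355% called higher), with the smallest adjusted p for Hpx at 0.0833, while all 10 had an unadjusted p under 0.05, all higher (background 5.64% higher and 6.5% lower). DESeq2 without this library called 5 of the 10 (Hp, Hpx, Itih3, Itih4 and Serpina3n) higher, and 0 lower, with a background of 1.37% higher and 1.81% lower. The median log2 fold change was 0.59 in these 5 livers. With 2 against 3 livers, an exact 2-sided rank test cannot go below p = 0.2.

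The size of the difference depended on the liver. Measured against the WT mean on the log2 scale, the 10 genes had a median of 0.75, 0.37 and 0.26 in the KO livers, against -0.14, -0.05 and 0.14 in the WT livers. KO replicate 1 had the highest level of 8 of the 10 genes and KO replicate 2 that of the other 2, Orm1 and Apcs. KO replicate 4 was the lowest KO liver for 8 of the 10, and lay below the WT mean for Orm3 (-1.39), Lbp (-0.33) and Apcs (-0.27). Without KO replicate 1 the median log2 fold change of the 10 genes was 0.31. Among WT livers replicate 3 was the highest for 5 of the 10 genes: Orm2 (0.85 above the WT mean on the log2 scale), Orm3 (0.43), Serpina3n (0.39), Apcs (0.25) and Itih3 (0.25).

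**Figure D2:**
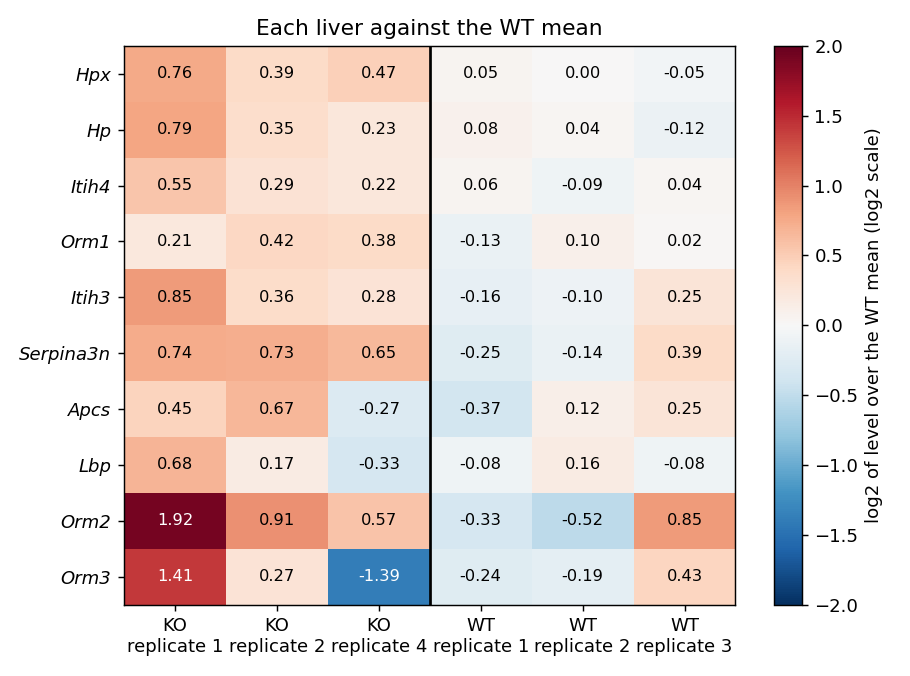
Each cell gives the log2 level in 1 liver minus the mean log2 level of the 3 WT livers, for the 10 genes (rows). The 3 KO livers are left of the line and the 3 WT livers right of it, with red above and blue below that mean. KO replicates 1 and 2 are above 0 in all 10 rows, and KO replicate 4 is below 0 for Apcs, Lbp and Orm3.

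Markers of other cells were compared over the same libraries. The 10 neutrophil markers summed to 17.4, 5.25 and 5.76 CPM in KO livers, against 3.44, 2.64 and 4.35 CPM in WT livers, so that KO replicate 1, the liver with the highest level of most of the 10 acute phase genes, was also the highest here. Of these 10 markers, 3 were abundant enough to be tested and 2 of the 3 had a positive log2 fold change. Those 2, S100a8 and S100a9, made up most of the sum, and for both every KO liver lay above every WT liver. Ngp, the remaining tested marker, went the other way (log2 fold change -0.19). It had 0.887, 0 and 0.0686 CPM in KO livers, against 0.39, 0.418 and 0.29 CPM in WT livers. S100a9 had 7.28, 2.66 and 2.92 CPM in KO livers, against 1.04, 1.12 and 1.92 CPM in WT livers (log2 fold change 1.66, adjusted p = 0.414 in edgeR and 0.0129 in DESeq2), so it rose in DESeq2 together with Hpx and Serpina3n. Ly6g was at 0 in KO replicate 4 and in all WT livers, and no marker was at 0 in every library. The 7 Kupffer cell markers summed to 433, 252 and 249.6 CPM in KO livers, against 243, 275 and 488 CPM in WT livers. Their sum was high in KO replicate 1 and in WT replicate 3, the WT liver with the highest Orm2, Orm3, Serpina3n, Apcs and Itih3. WT replicate 3 also had the lowest Hp (2293 CPM) and Hpx (2999.8 CPM) of all livers, so the acute phase genes did not all go with this sum. The share of mitochondrial counts was 4.17%, 3.98% and 3.91% in KO livers, against 3.44%, 3.84% and 3.99% in WT livers, with ranges that overlapped. The part of these cells in the levels of the acute phase genes was not tested.

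Haptoglobin and hemopexin, encoded by Hp and Hpx, bind haemoglobin and haem that escape from red blood cells and carry them to clearance. Hpx lies on chromosome 7 from 105591613 to 105600137, minus strand, and had 5270.3, 4076 and 4297 CPM in KO livers, against 3219.7, 3111 and 2999.8 CPM in WT livers. All KO livers exceeded all WT livers, and the WT livers lay close together, with a coefficient of variation of 14.0% in KO and 3.53% in WT. The level averaged 4548 ± 635 CPM in KO and 3110.1 ± 109.9 CPM in WT (SD, n = 3 each). Its log2 fold change was 0.55 (standard error, SE, 0.12), with an adjusted p = 0.257 in edgeR and 0.0147 in DESeq2. In the 5 livers without KO replicate 4 it was 0.59 (SE 0.13), with an adjusted p = 0.0833 in edgeR and 0.00175 in DESeq2. Hpx thus rose by DESeq2's test in both sets of livers, and by edgeR it did not pass in either.

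Hp, on chromosome 8 from 109575128 to 109579172, minus strand, had 4308, 3172 and 2926 CPM in KO livers, against 2636, 2556 and 2293 CPM in WT livers. Every KO liver was above every WT liver, and KO replicate 1 was well above the other livers. The means were 3468 ± 737 CPM in KO and 2495 ± 179.6 CPM in WT (SD, n = 3 each). A log2 fold change of 0.48 (SE 0.16) had an adjusted p = 0.547 in edgeR and 0.2 in DESeq2. It was 0.59 (SE 0.14) without KO replicate 4, with an adjusted p = 0.12 in edgeR and 0.00679 in DESeq2, and 0.30 without KO replicate 1. Hp and Hpx, which act on the same cargo, varied together over the 6 livers, with r = 0.95 between their log2 levels, a description over livers that share their genotype groups.

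The orosomucoids, or alpha-1-acid glycoproteins, are plasma carriers of small lipophilic molecules. Orm1, on chromosome 4 from 63344560 to 63348163, plus strand, had 469.8, 541 and 526 CPM in KO livers, against 370.4, 436 and 412 CPM in WT livers. The groups did not overlap, and Orm1 was the one gene besides Apcs for which KO replicate 1 was not the highest liver. It averaged 512 ± 37.7 CPM in KO and 406 ± 33.1 CPM in WT (SD, n = 3 each). Its log2 fold change of 0.34 (SE 0.12) had an adjusted p = 0.589 in edgeR and 0.372 in DESeq2, and without KO replicate 4 it was 0.32 (SE 0.12), with an adjusted p = 0.332 in edgeR. Over all settings tried it stayed between 0.28 and 0.40, the narrowest range of the 10 genes, and it was called in none of them.

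Orm2, on chromosome 4 from 63362449 to 63365878, plus strand, had 904, 460 and 327 counts in KO livers, against 185, 164 and 374 counts in WT livers. These correspond to 28.6, 14.2 and 11.2 CPM in KO and 6.01, 5.27 and 13.6 CPM in WT. WT replicate 3 lay above KO replicate 4 and just below KO replicate 2, so the groups overlapped, and without KO replicate 4 they did not. The ratio of the means was the largest of the 10 genes, at 18.0 ± 9.31 CPM in KO and 8.28 ± 4.58 CPM in WT (SD, n = 3 each). The log2 fold change was 1.13 (SE 0.44), with an adjusted p = 0.654 in edgeR and 0.748 in DESeq2, and 1.38 (SE 0.40) without KO replicate 4, with an adjusted p = 0.21 in edgeR. It was 0.63 without KO replicate 1 and 1.68 without WT replicate 3, so single livers moved it more than they moved Orm1.

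Orm3, on chromosome 4 from 63356162 to 63359511, plus strand, was the least abundant of the 3, with 151, 70 and 20 counts in KO livers, against 47, 49 and 67 counts in WT livers. The KO livers spread on both sides of the WT livers, with KO replicate 1 the highest and KO replicate 4 the lowest of all. The level averaged 2.54 ± 2.07 CPM in KO and 1.84 ± 0.507 CPM in WT (SD, n = 3 each). Its log2 fold change was 0.47 (SE 0.59, adjusted p = 0.943 in edgeR), 0.92 (SE 0.39, adjusted p = 0.389 in edgeR) without KO replicate 4 and -0.35 without KO replicate 1. The sign for Orm3 thus turned with a single liver.

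Orm1 supplied nearly all orosomucoid counts in both genotypes. Its share of the summed CPM of the 3 genes was 93.4%, 97.1% and 97.8% in KO livers, against 98.0%, 98.5% and 96.3% in WT livers. The Orm2 share was 5.69%, 2.55% and 2.08% in KO livers, against 1.59%, 1.19% and 3.16% in WT livers, and these ranges overlapped. The sum of the 3 genes was 503, 558 and 538 CPM in KO livers, against 378, 443 and 428 CPM in WT livers. Every KO liver lay above every WT liver for this sum. It does not depend on how reads were divided among the 3 genes if each read was counted once. Shared reads that were dropped or counted more than once would change it, and their handling is not given.

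Serum amyloid P component, encoded by Apcs, is a pentraxin that binds amyloid fibrils and microbial surfaces, and in mice it is the pentraxin known for a strong acute phase response. Apcs, on chromosome 1 from 172893961 to 172895041, minus strand, had 156, 181 and 94.5 CPM in KO livers, against 88.7, 124 and 136 CPM in WT livers. KO replicate 4 lay among the WT livers, and KO replicates 1 and 2 lay above them. The means were 144 ± 44.7 CPM in KO and 116 ± 24.5 CPM in WT (SD, n = 3 each). The log2 fold change of Apcs was 0.31 (SE 0.25, adjusted p = 0.897 in edgeR), and 0.55 (SE 0.17, adjusted p = 0.251 in edgeR and 0.073 in DESeq2) without KO replicate 4. Leaving out KO replicate 2 gave 0.11, and leaving out WT replicate 1 gave 0.16.

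Lipopolysaccharide-binding protein, encoded by Lbp, hands bacterial lipopolysaccharide to the receptor CD14. Lbp, on chromosome 2 from 158306493 to 158332852, plus strand, had 234, 165 and 117 CPM in KO livers, against 139, 163 and 139 CPM in WT livers. KO replicate 1 was the highest and KO replicate 4 the lowest of all livers, while KO replicate 2 matched the highest WT liver closely. The level averaged 172 ± 58.9 CPM in KO and 147 ± 14.1 CPM in WT (SD, n = 3 each). With a log2 fold change of 0.23 (SE 0.23, adjusted p = 0.923 in edgeR), Lbp had the smallest value of the 10 genes. It was 0.45 (SE 0.16, adjusted p = 0.295 in edgeR) without KO replicate 4 and -0.05 without KO replicate 1.

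The inter-alpha-trypsin inhibitor heavy chains are secreted proteins of which several, Itih3 included, are linked to the small inhibitor bikunin and passed on to hyaluronan, while Itih4 circulates without bikunin. Itih3 and Itih4 are neighbours on chromosome 14, from 30908572 to 30923760 on the minus strand and from 30886476 to 30902353 on the plus strand. Itih3 had 1292, 916 and 869 CPM in KO livers, against 641, 669 and 852 CPM in WT livers. The groups did not overlap, though WT replicate 3 was close to KO replicate 4. Itih3 averaged 1026 ± 232 CPM in KO and 721 ± 115 CPM in WT (SD, n = 3 each). Its log2 fold change was 0.51 (SE 0.18, adjusted p = 0.611 in edgeR), 0.62 (SE 0.17, adjusted p = 0.176 in edgeR and 0.0166 in DESeq2) without KO replicate 4 and 0.32 without KO replicate 1.

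Itih4 had 3028, 2540.3 and 2419 CPM in KO livers, against 2157, 1939.5 and 2124 CPM in WT livers. Each KO liver was above each WT liver. The means were 2662 ± 322 CPM in KO and 2073 ± 117 CPM in WT (SD, n = 3 each), and the log2 fold change of 0.36 (SE 0.12) had an adjusted p = 0.555 in edgeR and 0.298 in DESeq2. Without KO replicate 4 it was 0.43 (SE 0.12, adjusted p = 0.166 in edgeR and 0.0345 in DESeq2). Of the other heavy chain genes, Itih1 and Itih2 had log2 fold changes of 0.05 and 0.03, with KO and WT ranges that overlapped. Itih5 had 0.56 (adjusted p = 0.508 in edgeR), with 23.4, 26.5 and 25.0 CPM in KO livers, against 18.3, 12.8 and 19.8 CPM in WT livers and no overlap. Ambp, which encodes bikunin, had 0.28 (adjusted p = 0.609 in edgeR), also with every KO liver above every WT liver. These 4 were chosen after their values were seen.

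Serpina3n encodes a secreted serine protease inhibitor, a mouse counterpart of human alpha-1-antichymotrypsin. It lies on chromosome 12 from 104406729 to 104414329, plus strand, and had 529, 528 and 499 CPM in KO livers, against 267, 289 and 417 CPM in WT livers. All KO livers lay above all WT livers, and the KO livers were the tightest of the 10 genes, with a coefficient of variation of 3.25% in KO and 25.0% in WT. Serpina3n averaged 519 ± 16.8 CPM in KO and 324 ± 81.1 CPM in WT (SD, n = 3 each). The log2 fold change was 0.68 (SE 0.17), with an adjusted p = 0.334 in edgeR and 0.0128 in DESeq2, so that the gene rose in DESeq2 and did not pass in edgeR. Without KO replicate 4 it was 0.71 (SE 0.18, adjusted p = 0.133 in edgeR and 0.00443 in DESeq2), and without WT replicate 3 it was 0.90.

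**Figure D3:**
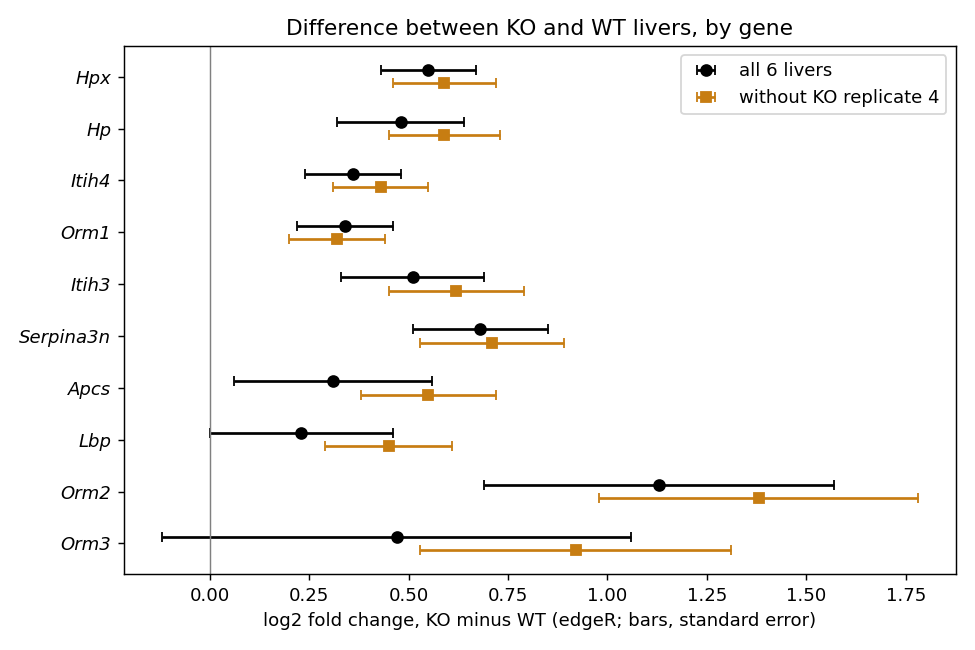
Log2 fold change, KO minus WT (x axis), of the 10 genes by edgeR, with bars for the standard error, from all 6 livers (black circles) and without KO replicate 4 (orange squares). All 20 values lie above 0, between 0.23 for Lbp with all livers and 1.38 for Orm2 without KO replicate 4, and the bars of Orm3 with all livers reach below 0.

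Per kilobase of exon, the levels of the 10 genes spanned a wide range. Hpx was the highest, with 3034 CPM per kb in KO and 2075 in WT, followed by Hp with 2159.6 in KO and 1554 in WT. Itih4 (722 in KO and 562 in WT) and Orm1 (661 in KO and 524 in WT) came next. Below them stood Itih3 (282 in KO and 198 in WT), Serpina3n (251 in KO and 157 in WT) and Apcs (148 in KO and 119.6 in WT). The lowest were Lbp (35.6 in KO and 30.4 in WT), Orm2 (23.3 in KO and 10.7 in WT) and Orm3 (3.29 in KO and 2.38 in WT). Over the 6 livers, the ranges of 5 pairs of neighbours in this order overlapped: Hpx and Hp, Itih4 and Orm1, Itih3 and Serpina3n, Serpina3n and Apcs, and Lbp and Orm2. The 10 genes together held 1.53%, 1.2% and 1.15% of all counts in KO livers, against 0.969%, 0.921% and 0.956% in WT livers, and every KO liver lay above every WT liver in this share.

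The 10 genes did not form 1 uniform group over the 6 livers. Of the 45 pairs of genes, 44 had a positive correlation of log2 levels, with a median of 0.61 and 12 pairs above 0.8. Orm2 and Itih3 were the closest pair (r = 0.98), and Orm1 and Orm3 the only pair with a negative value (r = -0.14). These are descriptions over 6 libraries that share 2 genotype groups. The genes named next are the extremes of a search over the other genes among the 13773 tested. With so many genes and 6 libraries, a high r is not evidence of shared regulation. The genes whose levels followed the mean standardised profile of the 10 most closely were Got1 (r = 0.994), Rasgrp2 (0.993), Sdsl (0.991), Cth (0.988) and Ube4a (0.987), and those most opposed to it were Orai3 (-0.990), Gulp1 (-0.988), Ttl (-0.984), Bri3bp (-0.981) and Usp45 (-0.981). Got1, the cytosolic aspartate aminotransferase, had 826, 481 and 275 CPM in KO livers, against 192, 223 and 252 CPM in WT livers. It showed the same order of KO livers as the mean profile of the 10 genes, with replicate 1 first and replicate 4 last.

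Other genes of the acute phase were read from a list of 21, and 17 of these had a positive and 4 a negative log2 fold change. Their median was 0.54, against -0.00 over all genes tested. By edgeR 0 of the 21 passed an adjusted p under 0.05 in all 6 livers and 11 had an unadjusted p under 0.05, all higher (3.7% of all tested genes). DESeq2 called 10 of the 21 higher (background 0.644%), namely Saa1, Saa2, Saa3, Saa4, Fga, Fgb, Fgg, Lcn2, Lrg1 and Steap4. In the 5 livers without KO replicate 4 it also called 10 higher (background 1.37%), with Fgl1 (adjusted p = 0.00124) in and Steap4 (adjusted p = 0.164) out. Without KO replicate 4, edgeR called 4 higher (Saa1, Fga, Lcn2 and Lrg1), against a background of 0.355%, and the median was 0.57. The list was chosen with results of these livers known and holds Saa1, which the study itself singled out, so its count is not independent evidence of direction.

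Lrg1, a leucine-rich glycoprotein of plasma, had 917, 924 and 594 CPM in KO livers, against 368, 325 and 409 CPM in WT livers. Its log2 fold change was 1.14 (SE 0.19, adjusted p = 0.146 in edgeR), and 1.33 (adjusted p = 0.00636 in edgeR) without KO replicate 4. Lcn2, the siderophore-binding lipocalin made by hepatocytes and neutrophils, had 30, 31.1 and 8.47 CPM in KO livers, against 5.72, 4.79 and 5.47 CPM in WT livers. Both genes rose by edgeR in the 5 livers without KO replicate 4, as did Fga, the alpha chain of fibrinogen, with 5799, 5684 and 5911 CPM in KO livers, against 3565, 3839.9 and 3694 CPM in WT livers. The part of neutrophils, whose markers are given above, in the Lcn2 level was not tested. Not every acute phase gene differed: Crp had a log2 fold change of -0.06, C3 of -0.01 and Cp of 0.03, each with overlapping groups, while Cfb had -0.35 with all KO livers below all WT livers. These 4 were chosen after their values were seen.

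Of 8 negative acute phase genes, whose plasma proteins fall in the response, 4 had a positive and 4 a negative log2 fold change (median -0.01, against -0.00 over all genes tested). By edgeR 0 passed an adjusted p under 0.05, at an unadjusted p under 0.05 there was 1 gene, lower (background 3.48%), and 1 was called lower by DESeq2 (background 0.629%). In the 5 livers without KO replicate 4, 5 were positive and 3 negative (median 0.04), with 0 called by edgeR and 1 lower by DESeq2 (background 1.81%). That gene was Serpina6, which encodes the corticosteroid-binding globulin, with 239.8, 253 and 205 CPM in KO livers, against 374, 308 and 333 CPM in WT livers (log2 fold change -0.54, SE 0.13, adjusted p = 0.29 in edgeR and 0.0268 in DESeq2). Every KO liver was below every WT liver. Rbp4, the next gene by p, went the other way, with 3729, 3785 and 3465 CPM in KO livers, against 3352, 3421 and 3152 CPM in WT livers. Its log2 fold change was 0.15 (adjusted p = 0.868 in edgeR), and every KO liver was above every WT liver. Alb, the albumin gene, had 82931, 93677 and 76215 CPM in KO livers, against 90526, 103089 and 89097 CPM in WT livers, and the groups overlapped. Alb was chosen after its values were seen.

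Among 24 genes of cytokine signalling and of the transcription factors that drive the acute phase, 21 were abundant enough to be tested. Of these, 14 had a positive and 7 a negative log2 fold change (median 0.16). By edgeR 0 passed an adjusted p under 0.05 and 6 had an unadjusted p under 0.05, 5 of them higher (background 3.7%) and 1 lower (3.48%). DESeq2 called 1 higher (background 0.644%), Il1r1, and 1 lower (0.629%), Lifr. When KO replicate 4 was left out, 11 were positive and 10 negative (median 0.08), and edgeR again called 0, with 6 higher and 3 lower at an unadjusted p under 0.05 (background 5.64% and 6.5%). In those 5 livers DESeq2 called Lifr lower (adjusted p = 1.76e-04, background 1.81%), no longer Il1r1 (adjusted p = 0.0635), and called Cebpb and Cebpd higher (background 1.37%). Cebpb, which encodes C/EBP-beta, had 204, 340.2 and 144 CPM in KO livers, against 159.9, 172 and 114 CPM in WT livers. Its log2 fold change was 0.62 with all livers (adjusted p = 0.752 in edgeR and 0.386 in DESeq2) and 0.88 without KO replicate 4 (adjusted p = 0.16 in edgeR and 0.00374 in DESeq2). Cebpd, a related factor, had 11.8, 20.2 and 6.38 CPM in KO livers, against 7.6, 7.13 and 3.91 CPM in WT livers, with 1.04 on the log2 scale with all livers (adjusted p = 0.661 in edgeR and 0.148 in DESeq2) and 1.37 without KO replicate 4 (adjusted p = 0.0987 in edgeR and 7.34e-04 in DESeq2). For both, KO replicate 4 lay within the range of the WT livers. Il1r1, the receptor through which interleukin-1 acts, had 54.7, 47.4 and 74.3 CPM in KO livers, against 31.9, 41.3 and 35.0 CPM in WT livers (log2 fold change 0.71, SE 0.18, adjusted p = 0.334 in edgeR and 0.0253 in DESeq2). Lifr, a receptor chain for cytokines of the interleukin-6 family, had 149, 172 and 206 CPM in KO livers, against 242, 261 and 352 CPM in WT livers (log2 fold change -0.70, SE 0.18, adjusted p = 0.334 in edgeR and 0.0167 in DESeq2). Neither gene's groups overlapped. Stat3 had 130.1, 131 and 165 CPM in KO livers, against 104, 102 and 107 CPM in WT livers, also without overlap, but with an adjusted p = 0.423 in edgeR and 0.132 in DESeq2, and was chosen after its values were seen. The cytokine genes Il6, Tnf and Osm had too few reads to be tested.

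The paralogs and binding partners of the 10 proteins were read from 2 further lists. Of 15 paralogs and chain partners, 8 were tested, 6 with a positive and 2 with a negative log2 fold change, and the median was 0.06. By edgeR 0 passed an adjusted p under 0.05 with all livers and 3 had an unadjusted p under 0.05, all higher (background 3.7%), while 0 were called by DESeq2. With KO replicate 4 left out, 5 were positive and 3 negative (median 0.05), and edgeR called 1 (background 0.355%), Serpina3m, a neighbouring paralog of Serpina3n, with 591, 556 and 291 CPM in KO livers, against 298, 344 and 313 CPM in WT livers (log2 fold change 0.85, adjusted p = 0.0192 in edgeR in those 5 livers). KO replicate 4 was the lowest liver of all for this gene, unlike for Serpina3n. Of 7 receptors and partners, 4 had a positive and 3 a negative value, with a median of 0.19, and by edgeR 0 passed while 2 had an unadjusted p under 0.05, both higher (background 3.7%), and 0 were called by DESeq2. Leaving out KO replicate 4, 6 were positive and 1 negative (median 0.08), with 0 called by edgeR or DESeq2. In that edgeR fit 1 of the 7 had an unadjusted p under 0.05, higher (background 5.64%). The 2 with the smallest p in all livers were Cd14, which receives lipopolysaccharide from Lbp (5.51, 4.61 and 5.66 CPM in KO livers, against 3.44, 2.35 and 3.48 CPM in WT livers), and Hmox1, which breaks down the haem that Hpx delivers (38.9, 18.1 and 39.5 CPM in KO livers, against 15.6, 18.5 and 22.3 CPM in WT livers). The groups did not overlap for Cd14 and overlapped for Hmox1.

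**Figure D4:**
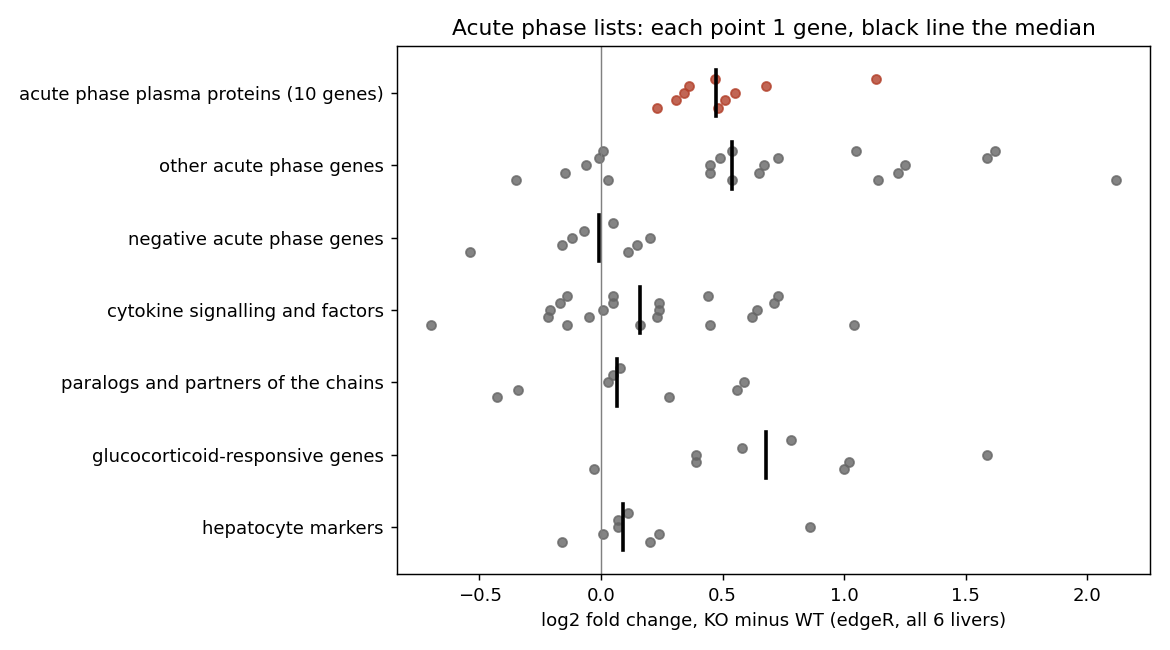
Each point is the log2 fold change, KO minus WT, of 1 tested gene by edgeR over all 6 livers (x axis), with the 10 acute phase plasma protein genes in red, other lists in grey and the median of each list as a black line. The medians are 0.47 for the 10 genes, 0.54 for the other acute phase genes, -0.01 for the negative acute phase genes and 0.68 for the glucocorticoid-responsive genes.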

How the data were processed

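Liver RNA was enriched for polyadenylated transcripts by the authors, who prepared directional libraries and read them from 1 end over 75 bases. Per the submitters' processing notes and the study's methods, reads were converted with bcl2fastq, trimmed with Trimmomatic, aligned with STAR 2.5.0c to GRCm38.p5 and counted per gene with featureCounts, and DESeq2 was the study's test. The strand setting and the handling of multi-mapped reads in counting are not given in the sources used here. As deposited, the table holds whole-number counts per gene, not normalized, for 6 libraries and 49671 genes. GENCODE M21 (GRCm38) holds the IDs of 49412 of them and lacks 259, and 0 rows named no gene.

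KO was compared with WT by edgeR 4.0.16 under R 4.3.3 (filterByExpr, TMM, glmQLFit and glmQLFTest, default settings), with Benjamini-Hochberg adjustment over all genes tested and a call at an adjusted p under 0.05. A standard error is the log2 fold change divided by the square root of F. The same fit was run without KO replicate 4. Alternatives were DESeq2 1.42.0, limma-voom (limma 3.58.1), other scalings, filters and dispersions, each library left out, and a replicate block. The scripts were tested on simulated counts. Tables, sequences and figures were made with pandas 2.3.3, numpy 2.4.6, scipy 1.17.1 and matplotlib 3.10.9. Libraries all differed from each other beyond sampling noise, with a chi-square of 16.9 to 175 per degree of freedom, and each counts as 1 sample. Nothing in the labels names same-numbered mice as pairs. CPM per kb divides by the exon length in GENCODE M21. Correlations used log2 CPM with a prior count of 2.

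The 10 genes and all lists were chosen with earlier results of these data known. The genes named are the 10, Ngfr, the 5 most like and the 5 most opposed to their mean profile and, per list, every gene that edgeR called with 6 or 5 libraries, or otherwise the 2 with the smallest p. Genes named for a DESeq2 call, and Cps1 and S100a9, were added after their values were seen. For cell type, sex-linked and sex-biased lists the summed level is given in their place. The lists were other acute phase genes, negative acute phase genes, signalling, paralogs, partners, glucocorticoid-responsive genes, markers of 11 cell types, and sex-linked, male-biased and female-biased liver genes. Flags for samples far from their group were not possible with 3 libraries per group.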

Additional observations from a re-analysis of the deposited data

How the results depend on the processing

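Calls depended on the test and on single livers, and 2 directions on a single liver. DESeq2 called 2 of the 10 genes and, over all genes, 85 higher and 83 lower, against 0 by edgeR. limma-voom called 1 gene higher and 4 lower over all genes, robust dispersions 3 higher and 6 lower, and edgeR without a filter on low counts 1 of the 10 (Hpx, adjusted p = 0.0496 by edgeR) with 69 higher and 67 lower. DESeq2 without KO replicate 4 called 5 of the 10, with 177 higher and 234 lower. With each liver left out in turn, edgeR called 0 of the 10 every time, 0 to 50 genes higher and 0 to 64 lower (the highest counts without KO replicate 4), and between 8 and 10 of the 10 genes had a positive log2 fold change, and their median ranged over 0.31 to 0.59. The exceptions in direction were Orm3 (-0.35) and Lbp (-0.05) without KO replicate 1, whose highest values with 1 liver left out, 0.92 and 0.45, came without KO replicate 4. For the 10 genes there was otherwise no change of sign in the 15 alternatives. The cause of these shifts was not tested.

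The replicate numbers 1 and 2 occur in both genotypes. Deviations of same-numbered livers from their group means had r = -0.124 for number 1 and 0.026 for number 2. The KO mean includes KO replicate 4, which stood apart, so these values cannot tell whether same-numbered livers share more than a number. A fit with the replicate number as a block called 5 of the 10 genes (Orm2, Hpx, Apcs, Itih3 and Serpina3n), with 220 higher and 248 lower over all genes and a median of 0.62. In that fit KO replicate 4 and WT replicate 3 were each alone at their number. The difference therefore rested on replicates 1 and 2 of each genotype and is not a result of all 6 livers.

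The 10 genes had 20 to 166438 counts per library. Orm3, with 20 to 151, has the largest relative counting error of the 10. Its livers also spread widely, with a coefficient of variation of 81.5% in KO and 27.5% in WT, and small differences of it were not detectable.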

Other observations

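Glucocorticoid-responsive genes were read because glucocorticoids act together with cytokines on the acute phase genes of hepatocytes. Of 8 such genes, 7 had a positive log2 fold change and 1 a negative one, with a median of 0.68. By edgeR 0 passed an adjusted p under 0.05 with all 6 livers and 4 had an unadjusted p under 0.05, all higher (background 3.7%), while 0 were called by DESeq2. Without KO replicate 4 all 8 were positive, and DESeq2 called 4 higher, against a background of 1.37%. Among them was Per1 (adjusted p = 0.0158 by DESeq2), and edgeR called the other 3 higher, against a background of 0.355%. These were Tat, the tyrosine aminotransferase (2185, 2586 and 698 CPM in KO livers, against 981, 1152 and 569.8 CPM in WT livers; adjusted p = 0.0496 by edgeR), Tsc22d3 (177, 165 and 56.3 CPM in KO livers, against 73.3, 84.7 and 41.2 CPM in WT livers; adjusted p = 0.0497 by edgeR) and the kinase gene Sgk1 (47.1, 38.0 and 18.3 CPM in KO livers, against 25.9, 27.5 and 25.5 CPM in WT livers; adjusted p = 0.0496 by edgeR). KO replicate 4 lay below KO replicates 1 and 2 for all 3 genes. The groups overlapped for each when it was included.

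The 3 fibrinogen chains, which are secreted as 1 protein, were close to each other in their differences. Fgb had 5501, 5559 and 5489 CPM in KO livers, against 3849.9, 4108 and 3840 CPM in WT livers (log2 fold change 0.49, adjusted p = 0.2 in edgeR and 0.00679 in DESeq2). Fgg had 3944, 4107 and 3948 CPM in KO livers, against 2841, 3032 and 2919 CPM in WT livers (log2 fold change 0.45, adjusted p = 0.234 in edgeR and 0.0194 in DESeq2). For Fga the log2 fold change was 0.65 (adjusted p = 0.129 in edgeR and 3.21e-05 in DESeq2). KO replicates 1, 2 and 4 had nearly the same level of each chain. Fgb and Fgg were chosen after their values were seen.

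The other cell type markers gave no group that separated KO from WT livers in its summed level, except those of stellate cells and fibroblasts (348 to 376 CPM in KO, 233 to 326 CPM in WT) and those of neutrophils. Each of the 6 stellate cell and fibroblast markers alone had overlapping KO and WT ranges. Most of their sum was Dcn, with 260, 223 and 189.9 CPM in KO livers, against 208, 162 and 151 CPM in WT livers. Endothelial markers summed to 157 to 185 CPM in KO and 159 to 236 CPM in WT, cholangiocyte markers to 31.8 to 77 CPM in KO and 26.9 to 65.5 CPM in WT, and red blood cell markers to 307 to 382 CPM in KO and 299 to 338 CPM in WT. Recruited macrophage markers summed to 4.64 to 8.99 CPM in KO and 4.09 to 5.76 CPM in WT, T and NK cell markers to 2.66 to 7.38 CPM in KO and 3.15 to 4.22 CPM in WT, B and plasma cell markers to 4.08 to 8.96 CPM in KO and 5.49 to 8.58 CPM in WT, and adipocyte markers to 1.99 to 3.64 CPM in KO and 3.28 to 7.68 CPM in WT. Male-biased liver genes summed to 79.7, 124 and 8109 CPM in KO livers, against 190.4, 269 and 216 CPM in WT livers. Female-biased liver genes summed to 1528, 1498 and 16.6 CPM in KO livers, against 1951, 2123 and 2192 CPM in WT livers.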
